A study of Mus musculus with 6 samples.

Results

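The transcripts described here encode the proteins that copy DNA in S phase: the factors that license origins, the enzymes of the replication fork, the suppliers of deoxynucleotides, the proteins that rebuild chromatin behind the fork, and the cyclin E, Cdk2 and E2f1 module that drives cells from G1 into S. The set comprised 48 genes, matched by symbol to the 25416 rows of an expression table from mouse intestine, and each of the 48 had a row. For 47 of them the level reached 1 FPKM (fragments scaled by transcript length and by the library's mapped total) in at least 3 of the 6 libraries, which was the condition for testing. Orc1 did not reach it and is given by its values alone.

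Oligo(dT)-captured RNA was sequenced from 3 intestine libraries with the genotype HET, which carried Rnf111 with the S254D substitution, and from 3 WT libraries. Rnf111 encodes a ubiquitin ligase best known for marking inhibitors of TGF-beta signalling for degradation. The labels give no age, sex, strain, intestinal segment or processing batch, and do not say whether each library came from a separate animal, so the p-values below measure the spread between libraries, which may be technical. The comparison asked how the substitution was associated with transcript levels in the tissue.

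Origins are licensed in G1, when the origin recognition complex, Cdc6 and Cdt1 load the Mcm helicase onto DNA. In S phase the helicase is activated by Cdc45 and the GINS complex, primase and polymerase alpha start each strand, the clamp loader places the Pcna ring, and polymerases epsilon and delta extend it. Many of these genes are switched on together by E2F factors once cyclin-dependent kinases inactivate the retinoblastoma proteins, and in the intestine most cells that copy their DNA are epithelial progenitors in the crypts.

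Rnf111 stood at 4.43, 4.83 and 4.25 FPKM in HET, against 4.97, 5.29 and 5.34 FPKM in WT. Its log2 fold change of -0.17 (95% confidence interval -0.32 to -0.02) had an adjusted p of 0.0609 in limma, and the exact two-sided permutation test gave p = 0.1, the smallest that 20 arrangements allow. FPKM does not read the substitution, so these values check no label. The FPKM values of a library summed to 469968 to 510568 in HET and to 493950 to 520095 in WT, and 10989 to 11073 rows in HET and 11923 to 12067 rows in WT reached 1 FPKM. Mitochondrially encoded transcripts took 15.4% to 18.3% of the sum in HET and 13.9% to 15.5% in WT. Sequencing depth is not known from FPKM, so no counting interval can be given, and the spread between libraries is the measure of error.

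Most of the replication genes differed little between the genotypes, and those that passed the test went both ways. Log2 fold changes throughout are HET minus WT, on log2(FPKM + 1), a scale that understates changes of low genes, and p-values were adjusted by Benjamini-Hochberg over all 11870 tested rows. In limma 8 of the 47 tested members were lower in HET and 4 were higher at an adjusted p under 0.05, and 35 did not pass. Over all tested rows 35.7% were lower, 10.7% were higher and 46.4% passed in either direction. The lower members were Ccne2, Rfc1, Mcm4, Rpa1, Rfc2, Pold1, Pola1 and Cdk2, and the higher members were Fen1, Ccne1, Pold2 and Rrm2. All 3 HET libraries lay below all 3 WT libraries for 10 members, against 43.8% of all tested rows. They lay above them for 8 members, against 16.0% of all tested rows. The genotypes overlapped for the other 29 tested members. Over all 11870 tested rows 4777 overlapped and 59.8% did not.

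The median log2 fold change of the 47 tested members was -0.0014, beside -0.12 for all tested rows, and the members ranged from -0.83 for Ccne2 to 0.41 for Fen1. An absolute change under 0.3 was found for 43 of the 47 members and for 63.0% of all tested rows. Both figures rest on the scale of log2(FPKM + 1), which understates changes of low genes. For 43 members the 95% interval lay wholly between -0.5 and 0.5. The FPKM values of all 48 members summed to 498, 457 and 441 in HET, against 460, 470 and 468 in WT. The HET sums spanned both sides of the WT sums. Pcna was the most abundant member per transcript length.

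The zero point of these changes depends on how libraries are scaled. With median-ratio size factors the median of all tested rows stood at 0.07 in place of -0.12, that of the members at 0.18, and 20 members were higher and 2 lower, beside 31.0% and 20.7% of all tested rows. Relative to 12 epithelial genes the median of all rows was -0.25, that of the members -0.13, and 1 member was higher and 20 were lower, beside 4.63% and 54.3% of all tested rows. The distance of the members' median above that of all rows, 0.11 as deposited, was 0.12 under both, 0.16 after quantile normalization, 0.062 with a filter at a mean of 5 FPKM, 0.075 without a filter and 0.075 after a correction for transcript length and GC content. The share of lower genes among all called genes was 76.9% as deposited, 66.9% with a common FPKM sum, 40.0% with median-ratio factors, 52.1% with median-ratio factors over tested rows, 42.4% after quantile normalization and 92.1% relative to the epithelial genes. Ccne2, Rfc1 and Fen1 were called in the same direction under every one of the 18 or 19 alternatives that could be run for each. For 33 of the 35 members that did not pass, the sign of the change flipped under at least 1 alternative.

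Single libraries also moved the counts. Without HET replicate 2, HET replicate 3, WT replicate 1, WT replicate 2 or WT replicate 3 the number of lower members was 5 in each case, and without HET replicate 1 it was 10. Without WT replicate 1, 1 member was higher, and without HET replicate 2, WT replicate 2 or WT replicate 3, 2 members were higher. HET replicate 1, the library with the largest FPKM sum and the highest mitochondrial share of the HET libraries, held the highest HET value for 30 of the 47 members, or 63.8%, against 43.5% of all tested rows. The median coefficient of variation of the tested members was 7.24% in HET and 4.88% in WT.

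**Figure D1:**
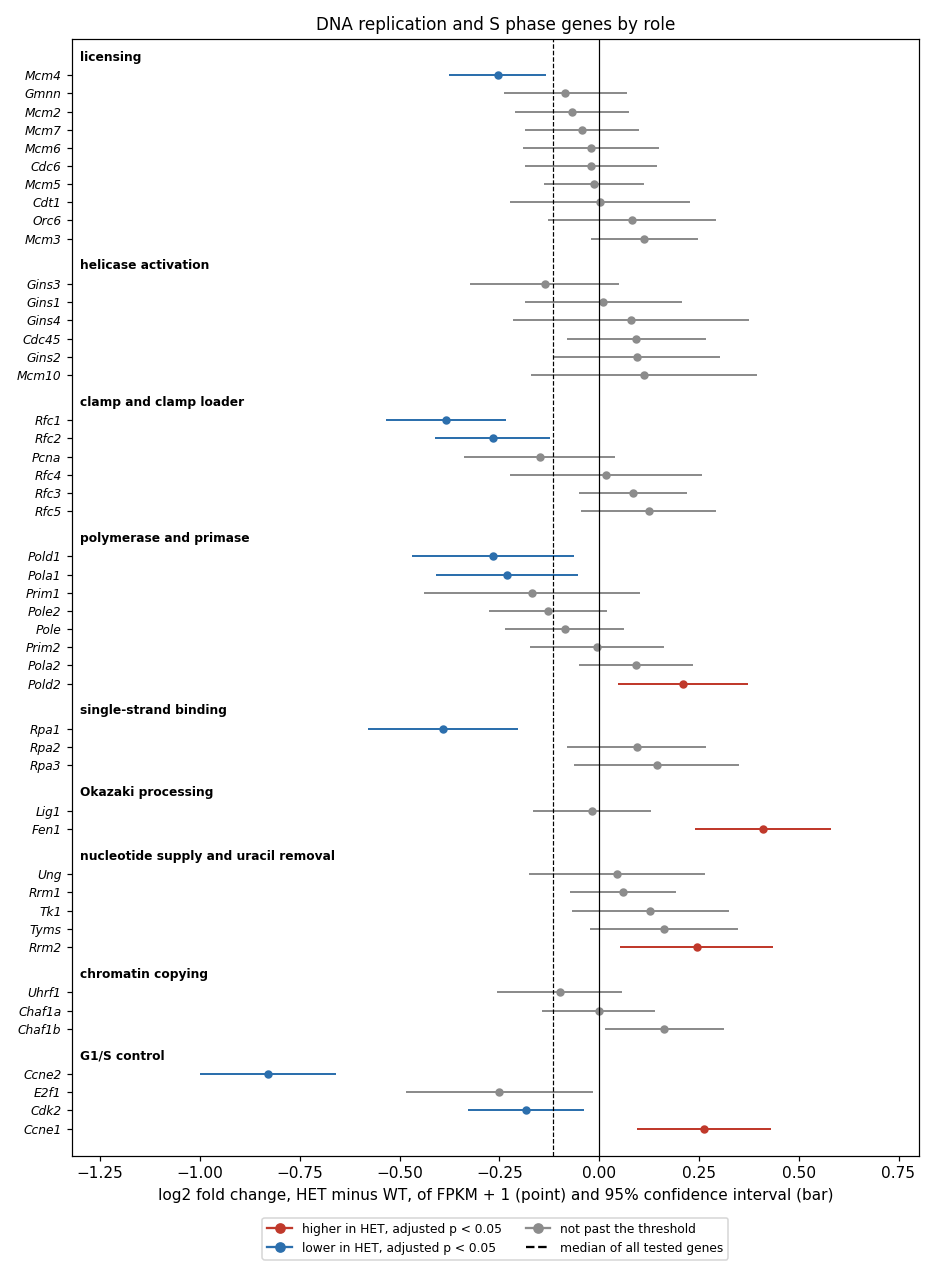
Log2 fold change (HET minus WT, of FPKM + 1; x axis) of each of the 47 tested members with its 95% confidence interval, grouped by role, from limma on 3 libraries per genotype. Red marks the 4 members higher in HET, blue the 8 lower, grey the 35 that did not pass, and the dashed line is the median of all 11870 tested rows at -0.12; Ccne2 at -0.83 stands farthest from 0.

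Promoter sequences show letters that some of these genes have in common apart from their levels. The 250 bases before each listed start of a gene were read from RefSeq on mouse build GRCm38.p6, which held 39 of the 48 members. No entry was used for Ccne2, Gins1, Gins2, Gins4, Gmnn, Mcm4, Pole, Prim2 and Rfc2. Fen1, Lig1, Mcm7, Pold2 and Uhrf1 had several starts, and a gene was counted if the letters were before any of its starts. The 6 printed here are, in order, a pair of licensing genes with E2F letters whose levels did not pass the test, the pair of lower members with such letters, and a lower and a higher member without them. Capitals mark the octamers TTTCCCGC, TTTGGCGC, TTTGCCGC and TTTCGCGC, which are forms of the E2F element, and the CCAAT element, each on either strand, so that CCAAT on the other strand reads ATTGG. Each sequence is written 5′ to 3′ in the direction of its gene. Mcm5 lies at chr8:75109259-75109508 on the plus strand, Mcm6 at chr1:128359706-128359955 on the minus strand, Cdk2 at chr10:128705052-128705301 on the minus strand, Pola1 at chrX:93632156-93632405 on the minus strand, Rfc1 at chr5:65335640-65335889 on the minus strand and Rrm2 at chr12:24708004-24708253 on the plus strand.
Mcm5: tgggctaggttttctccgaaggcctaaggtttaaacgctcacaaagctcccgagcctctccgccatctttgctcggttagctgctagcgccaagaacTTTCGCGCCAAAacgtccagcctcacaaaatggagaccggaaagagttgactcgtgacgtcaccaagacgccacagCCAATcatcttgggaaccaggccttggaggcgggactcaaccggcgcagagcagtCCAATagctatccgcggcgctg
Mcm6: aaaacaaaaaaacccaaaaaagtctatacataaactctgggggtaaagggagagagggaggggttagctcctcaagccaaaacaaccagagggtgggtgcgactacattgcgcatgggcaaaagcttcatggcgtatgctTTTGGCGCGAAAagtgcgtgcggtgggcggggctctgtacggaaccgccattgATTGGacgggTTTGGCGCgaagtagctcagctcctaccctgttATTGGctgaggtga
Cdk2: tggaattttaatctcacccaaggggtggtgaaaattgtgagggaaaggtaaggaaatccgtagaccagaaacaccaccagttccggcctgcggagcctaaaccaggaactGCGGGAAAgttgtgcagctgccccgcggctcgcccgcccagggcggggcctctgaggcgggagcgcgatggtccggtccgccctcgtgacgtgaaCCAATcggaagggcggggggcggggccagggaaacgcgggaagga
Pola1: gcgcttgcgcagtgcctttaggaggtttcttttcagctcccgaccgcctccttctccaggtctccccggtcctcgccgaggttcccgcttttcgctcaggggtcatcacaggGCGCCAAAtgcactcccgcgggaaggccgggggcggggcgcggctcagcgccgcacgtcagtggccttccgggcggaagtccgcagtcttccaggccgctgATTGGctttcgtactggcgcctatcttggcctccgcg
Rfc1: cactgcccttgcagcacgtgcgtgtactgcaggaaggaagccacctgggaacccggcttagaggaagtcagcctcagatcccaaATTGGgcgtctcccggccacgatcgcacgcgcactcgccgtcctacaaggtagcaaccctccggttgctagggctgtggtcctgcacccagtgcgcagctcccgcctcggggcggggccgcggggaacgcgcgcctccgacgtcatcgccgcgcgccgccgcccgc
Rrm2: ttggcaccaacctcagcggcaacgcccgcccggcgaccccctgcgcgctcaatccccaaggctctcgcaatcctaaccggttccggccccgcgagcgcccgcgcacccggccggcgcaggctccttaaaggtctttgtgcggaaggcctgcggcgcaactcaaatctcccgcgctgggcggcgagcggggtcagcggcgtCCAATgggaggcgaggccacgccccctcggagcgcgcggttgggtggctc

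At least 1 of the 4 octamers was present in 10 of the 39 member promoters, or 25.6%, against 2.16% of the 27025 genes in the promoter table and 3.87% of the 8987 tested genes with an entry. The 10 were Cdc6, Cdk2, Gins3, Mcm5, Mcm6, Mcm7, Orc1, Pola1, Rfc3 and Uhrf1. For Mcm7 and for Uhrf1 an octamer was before one start and absent before another. TTTCGCGC and the reverse complement of TTTGGCGC share letters, and both were counted in the Mcm5 and Mcm6 promoters where they overlap. Among members that were lower in HET, 2 of the 5 with an entry held an octamer, among those higher in HET 0 of 4, and among those that did not pass 7 of 29, or 24.1%. CCAAT on either strand was present in 24 of the 39 member promoters, or 61.5%. It was present in 37.5% of the 27025 genes and in 40.7% of the 8987 tested genes with an entry. In 17 promoters of a list of mitosis genes, the octamers were present in 1, or 5.88%, and CCAAT in 15, or 88.2%. A match of letters is a description of the sequence, and its absence says only that these letters are not in this window.

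Among the licensing genes, Mcm4 alone passed the test, and the other 9 tested members did not. Over all tested rows 46.4% passed, 35.7% as lower and 10.7% as higher. Mcm4, a subunit of the replicative helicase, stood at 7.38, 7.26 and 7.46 FPKM in HET, against 8.94, 9.17 and 8.82 FPKM in WT. The 2 sets of libraries were well apart, and HET was lower by 1.22-fold (log2 fold change -0.25, SE 0.05, adjusted p = 0.00632 in limma). The call was kept in each of the 6 fits that left out a library, and was not made under median-ratio scaling (adjusted p = 0.323), median-ratio scaling over tested rows (0.0681) or quantile normalization (0.0949). Licensing genes as a group had a median log2 fold change of -0.02.

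Mcm3, another subunit, went the other way from Mcm4 without passing: it stood at 10.3, 9.60 and 10.5 FPKM in HET, against 9.23, 9.48 and 9.12 FPKM in WT. Its groups did not overlap, and its log2 fold change of 0.11 had an adjusted p of 0.136. The helicase holds its subunits in equal number, and their transcripts were not equally abundant per length in either genotype. Mcm6 was the highest, with a mean of 20.7 ± 1.73 FPKM in HET and 21.0 ± 0.7495 FPKM in WT, followed by Mcm7 at 14.6 ± 0.788 in HET and 15.0 ± 0.418 in WT (SD, n = 3 each). Mcm5 came next at 11.1 ± 0.187 FPKM in HET and 11.2 ± 0.376 FPKM in WT, and Mcm2 was at 9.27 ± 0.466 FPKM in HET and 9.76 ± 0.337 FPKM in WT. Within each library Mcm4 made up 10.1% ± 0.326 of the summed FPKM of the 6 subunits in HET and 11.9% ± 0.347 in WT, and Mcm3 13.8% ± 0.661 in HET and 12.3% ± 0.369 in WT. The ratio of Mcm4 to Mcm3, which does not depend on the scaling of a library, was 0.719, 0.756 and 0.709 in HET, against 0.969, 0.967 and 0.968 in WT.

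Gmnn, which encodes the Cdt1 inhibitor geminin, stood at 24.2, 22.3 and 21.5 FPKM in HET, against 23.0, 24.3 and 24.9 FPKM in WT, with overlapping groups and a log2 fold change of -0.09 (adjusted p = 0.309). The ratio of Gmnn to Cdt1 was 2.19, 2.41 and 2.46 in HET and 2.48, 2.32 and 2.73 in WT, again overlapping. Cdt1 and Cdc6, the loading factors, had log2 fold changes of 0.0018 and -0.02, and Orc6, an origin recognition subunit, of 0.08, with adjusted p-values of 0.989, 0.832 and 0.466. The 4 members Mcm2, Mcm5, Mcm6 and Mcm7 lay between -0.07 and -0.01, with adjusted p-values of 0.380 to 0.849. Orc1, the largest origin recognition subunit, was near the limit of 1 FPKM set for testing. It stood at 1.14, 0.926 and 0.651 FPKM in HET and 0.745, 0.650 and 0.813 FPKM in WT.

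None of the 6 genes that turn the loaded helicase into a moving one passed in limma, and 0 of them reached an unadjusted p under 0.05. Gins3, a GINS subunit, stood at 1.02, 1.33 and 1.03 FPKM in HET, against 1.34, 1.25 and 1.41 FPKM in WT. Cdc45, which joins the helicase at the origin, stood at 5.03, 4.47 and 4.79 FPKM in HET, against 4.25, 4.83 and 4.13 FPKM in WT. Gins2, a further GINS subunit, stood at 8.12, 7.33 and 6.38 FPKM in HET, against 6.81, 6.37 and 7.01 FPKM in WT. The libraries of the genotypes overlapped for all 6 genes, and for 4777 of the 11870 tested rows. The log2 fold changes ran from -0.14 for Gins3 (adjusted p = 0.189) to 0.11 for Mcm10 (adjusted p = 0.462), with Cdc45 at 0.09 (0.325) and Gins2 at 0.09 (0.404). The 95% intervals of the 6 reached from -0.32 to 0.39. Exons of Gins2 share 67.3% of their bases with Gse1 on the opposite strand, and the sources used here do not say whether counting was stranded. Gse1 was lower in HET, at 4.12 ± 0.556 FPKM against 5.27 ± 0.367 FPKM in WT (adjusted p = 0.0374 in limma).

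The clamp loader was split between its subunits. Rfc1, the large subunit, which opens the Pcna ring together with the small ones, stood at 4.16, 4.20 and 4.25 FPKM in HET, against 5.74, 5.42 and 6.22 FPKM in WT. The HET values lay close together and below every WT value, a 1.38-fold lower level (log2 fold change -0.38, SE 0.06, 95% interval -0.53 to -0.24, adjusted p = 0.00298 in limma), and the adjusted p stayed at or below 0.0358 in all 18 alternatives run for it. Rfc2, a small subunit, stood at 6.44, 5.96 and 5.88 FPKM in HET, against 7.85, 7.52 and 7.24 FPKM in WT. It was 1.24-fold lower (log2 fold change -0.27, SE 0.06, adjusted p = 0.0108), a call not made under median-ratio scaling (0.310), median-ratio scaling over tested rows (0.0837) or quantile normalization (0.197).

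The other small subunits did not pass: Rfc3, Rfc4 and Rfc5 had log2 fold changes of 0.08, 0.02 and 0.12, with adjusted p-values of 0.253, 0.903 and 0.187. The ratio of Rfc1 to Rfc5 within a library was 0.359, 0.411 and 0.421 in HET, against 0.610, 0.531 and 0.663 in WT, with no overlap. Pcna, the sliding clamp, stood at 66.6, 60.9 and 54.7 FPKM in HET, against 65.4, 67.7 and 68.6 FPKM in WT, and HET replicate 1 lay among the WT values. The log2 fold change of -0.15 had an adjusted p of 0.161, and without HET replicate 1 it was -0.22 (adjusted p = 0.0295). That was the only call of Pcna in the 6 fits that left out a library. Rfc2 shares 15.1% of its exon bases with Lat2, an immune adaptor gene on the opposite strand, which was also lower, at 1.29 ± 0.457 FPKM in HET and 2.17 ± 0.362 FPKM in WT (SD, n = 3 each). Rfc4 shares 12.7% with Eif4a2, which stood at 57.9 ± 4.01 FPKM in HET and 109 ± 5.44 FPKM in WT, and the part of such overlaps in the values was not tested.

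Of the polymerase and primase genes, Pold1 and Pola1 were lower in HET, Pold2 was higher, and 5 did not pass. Over all tested rows 35.7% were lower and 10.7% higher. Pold1, the catalytic subunit of the lagging-strand polymerase delta, stood at 4.90, 3.86 and 4.30 FPKM in HET, against 5.07, 5.62 and 5.57 FPKM in WT. HET replicate 1 came close to WT replicate 1, and HET was 1.24-fold lower (log2 fold change -0.27, SE 0.08, adjusted p = 0.0381 in limma). Without HET replicate 2, HET replicate 3 or any single WT library the adjusted p of Pold1 was 0.0561 to 0.113, and the call was made in 6 of 18 alternatives. Pold2, the accessory subunit of the same enzyme, stood at 27.2, 25.1 and 23.7 FPKM in HET, against 21.4, 21.0 and 22.8 FPKM in WT. It was 1.16-fold higher (log2 fold change 0.21, SE 0.07, adjusted p = 0.0405), and without HET replicate 1, HET replicate 2 or any single WT library its adjusted p was 0.0614 to 0.126, and the call was made in 11 of 19 alternatives. Within each library the ratio of Pold1 to Pold2 was 0.180, 0.154 and 0.181 in HET, against 0.237, 0.267 and 0.244 in WT, so the genotypes were separated in the ratio.

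Pola1, the catalytic subunit of polymerase alpha, stood at 2.05, 1.67 and 1.92 FPKM in HET, against 2.49, 2.19 and 2.46 FPKM in WT. The highest HET value lay just under the lowest WT value, and HET was 1.26-fold lower (log2 fold change -0.23, SE 0.07, adjusted p = 0.0396). Leaving out HET replicate 2, HET replicate 3 or any single WT library gave Pola1 an adjusted p of 0.0509 to 0.122, and its call was made in 7 of 18 alternatives, with the sign turned (0.062) after quantile normalization. Its partner subunit Pola2 was not lower, at 8.66 ± 0.115 FPKM in HET and 8.07 ± 0.480 FPKM in WT (adjusted p = 0.239). Primase subunits Prim1 and Prim2 had log2 fold changes of -0.17 and -0.01, and Pole and Pole2 of the leading-strand polymerase epsilon of -0.09 and -0.13, all with adjusted p-values of 0.128 to 0.952. For both Pole and Pole2 every HET library lay below every WT library.

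Rpa1, the large subunit of the protein that coats single-stranded DNA, stood at 6.48, 6.41 and 6.56 FPKM in HET, against 9.95, 8.497 and 8.10 FPKM in WT. The HET libraries were nearly equal, the WT libraries spread more, and HET was 1.36-fold lower (log2 fold change -0.39, SE 0.08, adjusted p = 0.00670 in limma). The call was not made under median-ratio scaling (adjusted p = 0.0884) or quantile normalization (0.0591). The smaller subunits were not lower: Rpa2 stood at 10.0, 9.25 and 8.66 FPKM in HET, against 9.20, 8.66 and 8.09 FPKM in WT, and Rpa3 at 26.0, 22.0 and 20.8 FPKM in HET, against 20.7, 20.8 and 20.2 FPKM in WT. Neither passed, with log2 fold changes of 0.09 and 0.14 and adjusted p-values of 0.323 and 0.208. The ratio of Rpa1 to Rpa2 was 0.648, 0.693 and 0.758 in HET, against 1.08, 0.981 and 1.002 in WT.

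Fen1, the nuclease that trims the flap at the end of each Okazaki fragment, had the largest increase of the members, at 19.7, 17.5 and 17.4 FPKM in HET, against 13.9, 13.9 and 12.6 FPKM in WT. All HET libraries lay above all WT libraries, by 1.35-fold on average (log2 fold change 0.41, SE 0.07, 95% interval 0.24 to 0.58, adjusted p = 0.00375 in limma), and the adjusted p was at most 0.0194 over its 19 alternatives. Lig1, the ligase that seals the fragments, stood at 10.9, 10.4 and 10.5 FPKM in HET, against 10.0, 11.2 and 11.1 FPKM in WT, with overlapping groups and a log2 fold change of -0.02 (adjusted p = 0.833). The ratio of Fen1 to Lig1 was therefore higher in each HET library, at 1.80, 1.68 and 1.66, against 1.39, 1.24 and 1.13 in WT. In the annotation 78.8% of the exon bases of Fen1 are also exon of the antisense gene Gm10143, and 5.37% of Tmem258, so without strand their fragments cannot be told apart. Tmem258 did not pass, at 53.6 ± 10.6 FPKM in HET and 49.2 ± 2.97 FPKM in WT.

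**Figure D2:**
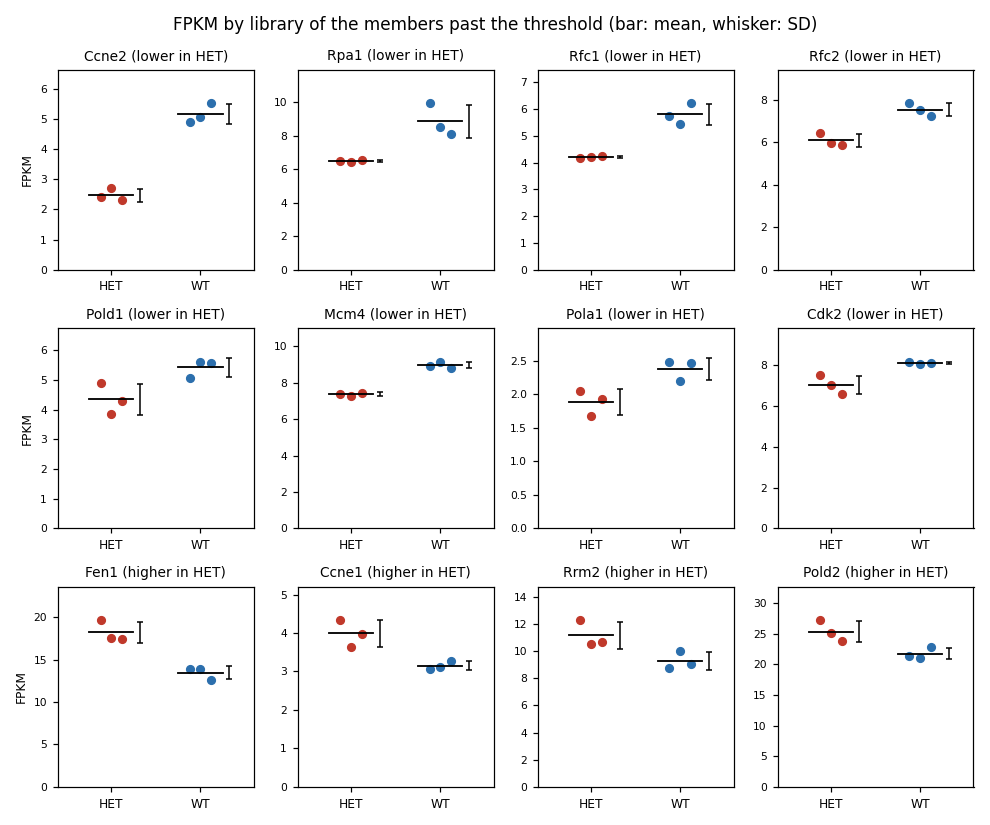
FPKM of each library (points; y axis from 0) for the 12 members past the threshold, with the mean (line) and SD (whisker) of 3 HET libraries (red) and 3 WT libraries (blue). The groups are apart in every panel; the HET libraries lie below WT in the first 8 panels and above it in the last 4.

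All 5 tested genes of deoxynucleotide supply and uracil removal had a positive log2 fold change, with a median of 0.13, and 1 passed. Of the 11870 tested rows 4172 had a positive change, and 10.7% passed as higher. Rrm2, the subunit of ribonucleotide reductase whose level limits the enzyme in S phase, stood at 12.3, 10.5 and 10.6 FPKM in HET, against 8.74, 10.0 and 9.03 FPKM in WT. The groups were close but did not overlap, with HET 1.21-fold higher (log2 fold change 0.24, SE 0.08, adjusted p = 0.0414 in limma). Without HET replicate 1, HET replicate 2, WT replicate 1 or WT replicate 3 the adjusted p of Rrm2 was 0.0584 to 0.133. Rrm1, the partner subunit, had a log2 fold change of 0.06 (adjusted p = 0.398). The call of Rrm2 was made in 11 of 19 alternatives. The ratio of Rrm2 to Rrm1 overlapped between the genotypes, at 0.937, 0.818 and 0.781 in HET, against 0.712, 0.807 and 0.684 in WT. The signs of all 5 stayed positive under both median-ratio scalings and quantile normalization. Those settings moved the median of all tested rows up, from -0.12 to 0.07, 0.0013 and 0.04, so positive signs there say little. Relative to the epithelial genes the signs of Rrm1, Tk1 and Ung were negative, and the median of the 5 was -0.02. Those of Tk1 and Ung were also negative after the length and GC correction, and that of Ung without HET replicate 1.

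Tyms, which makes thymidylate from deoxyuridylate, stood at 8.82, 7.86 and 7.32 FPKM in HET, against 7.40, 6.66 and 7.02 FPKM in WT. Tk1, the thymidine salvage kinase of cycling cells, stood at 24.2, 20.6 and 19.96 FPKM in HET, against 18.8, 20.4 and 19.6 FPKM in WT. Both overlapped between genotypes and did not pass, with log2 fold changes of 0.16 and 0.13 and adjusted p-values of 0.123 and 0.234. Ung, which removes uracil from DNA, had a log2 fold change of 0.04 (adjusted p = 0.716). HET replicate 1 held the highest value of all 6 libraries for Rrm2, Tyms, Tk1 and Ung.

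Among 14 further genes of nucleotide synthesis, 6 were higher in HET and 2 were lower, beside 10.7% and 35.7% of all tested rows. The median log2 fold change of the 14 was 0.14. The higher genes included Impdh2, the rate-limiting enzyme of guanine nucleotide synthesis, at 35.7, 35.4 and 32.9 FPKM in HET, against 28.0, 27.1 and 30.7 FPKM in WT (adjusted p = 0.0160 in limma), and Umps, which makes uridine monophosphate, at 5.38, 5.13 and 5.17 FPKM in HET, against 4.22, 4.31 and 4.56 FPKM in WT (adjusted p = 0.0180). Both lower genes are known for supply outside S phase. Tk2, the mitochondrial thymidine kinase, stood at 1.99, 2.06 and 1.66 FPKM in HET, against 2.94, 2.83 and 3.37 FPKM in WT (adjusted p = 0.00375), and Rrm2b, the reductase subunit induced by p53, at 0.923, 1.32 and 0.907 FPKM in HET, against 1.92, 1.59 and 1.65 FPKM in WT (adjusted p = 0.0127). None of these groups overlapped. The 6 higher calls became 0 without WT replicate 1, 0 without WT replicate 2, 2 without HET replicate 2, 3 without WT replicate 3, 4 without HET replicate 1 and 0 relative to the epithelial genes. Under median-ratio scaling 8 were higher and 2 lower, beside 31.0% and 20.7% of all tested rows. After quantile normalization 7 were higher and 0 lower, beside 24.7% and 18.1% of all tested rows. There Tk2 had an adjusted p of 0.0611 in limma and Rrm2b of 0.545.

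The 3 genes that rebuild chromatin and its methylation behind the fork did not pass in limma, and 1 of them reached an unadjusted p under 0.05. Of all 11870 tested rows 46.4% passed, and 6465 reached an unadjusted p under 0.05. Chaf1b, a subunit of the histone chaperone CAF-1, stood at 4.98, 5.38 and 5.51 FPKM in HET, against 4.61, 4.40 and 4.83 FPKM in WT. Its groups did not overlap, its log2 fold change was 0.16 (adjusted p = 0.0676), and without HET replicate 1 it was 0.20 (adjusted p = 0.0358). That was the only call of Chaf1b in the 6 fits that left out a library. Uhrf1, which guides the maintenance methyltransferase to newly copied DNA, stood at 8.41, 7.43 and 7.96 FPKM in HET, against 8.17, 8.995 and 8.52 FPKM in WT (adjusted p = 0.249). Chaf1a, the large CAF-1 subunit, was level at 4.01 ± 0.210 FPKM in HET and 4.01 ± 0.104 FPKM in WT (adjusted p = 0.986), and 52.5% of its exon bases are shared with Ubxn6 on the opposite strand. Of 9 further S phase chromatin genes 1 passed, the histone mRNA binding protein gene Slbp, at 21.0, 21.1 and 19.97 FPKM in HET, against 24.8, 24.1 and 24.6 FPKM in WT (adjusted p = 0.00962). Slbp was not called under median-ratio scaling (adjusted p = 0.643 in limma) or under median-ratio scaling over tested rows (0.112). Under the former 3 of the 9 were higher and 0 were lower, beside 31.0% and 20.7% of all tested rows.

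The largest change of any member was that of Ccne2, and of the 4 genes of G1/S control it and Cdk2 were lower, Ccne1 was higher and E2f1 did not pass. Over all tested rows 35.7% were lower and 10.7% higher. Ccne2, one of the paired genes for cyclin E, the activator of Cdk2 at the G1/S border, stood at 2.40, 2.70 and 2.31 FPKM in HET, against 4.89, 5.07 and 5.53 FPKM in WT. No library came near the other genotype, and HET was 2.09-fold lower (means of 2.47 ± 0.206 FPKM in HET and 5.16 ± 0.330 FPKM in WT, SD, n = 3 each), a log2 fold change of -0.83 (SE 0.07, 95% interval -0.998 to -0.66, adjusted p = 0.000281 in limma). It was the only member with an absolute log2 fold change over 0.5, and its adjusted p was at most 0.00236 over the 18 alternatives run for it. Ccne1, the other cyclin E gene, went the opposite way, at 4.34, 3.65 and 3.99 FPKM in HET, against 3.06, 3.12 and 3.28 FPKM in WT. HET was 1.26-fold higher with no overlap (log2 fold change 0.26, SE 0.07, adjusted p = 0.0199).

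The Ccne1 call was not made without WT replicate 1 (adjusted p = 0.0695), without WT replicate 2 (0.0631), relative to the epithelial genes (0.112) or after a correction for transcript length and GC content (0.0853), while its sign was positive in all 18 alternatives. Within a library the ratio of Ccne2 to Ccne1 was 0.554, 0.741 and 0.578 in HET, against 1.599, 1.62 and 1.68 in WT. Ccne2 was thus the less abundant of the pair per length in every HET library and the more abundant in every WT library. Exons of Ccne2 share 17.4% of their bases with Ints8 on the opposite strand, and Ints8 was higher in HET, at 8.23 ± 0.292 FPKM against 6.95 ± 0.0815 FPKM in WT (SD, n = 3 each).

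Cdk2, the kinase that both cyclins activate, stood at 7.51, 7.03 and 6.61 FPKM in HET, against 8.19, 8.08 and 8.11 FPKM in WT. The WT libraries were nearly equal and all above HET, which was 1.15-fold lower (log2 fold change -0.18, SE 0.06, adjusted p = 0.0421 in limma). Without HET replicate 2, HET replicate 3 or any single WT library the adjusted p of Cdk2 was 0.0974 to 0.115. Its call was made in 8 of 19 alternatives, and under median-ratio scaling its log2 fold change was 0.0059. E2f1, an activating E2F, stood at 2.13, 1.58 and 1.57 FPKM in HET, against 2.04, 2.44 and 2.33 FPKM in WT. HET replicate 1 overlapped WT, the log2 fold change of -0.25 had an adjusted p of 0.0735, and without HET replicate 1 it was -0.34 (adjusted p = 0.0120). That was the only call of E2f1 in the 6 fits that left out a library. E2f1 was called in 2 of 18 alternatives, and its log2 fold change was 0.039 after quantile normalization.

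**Figure D3:**
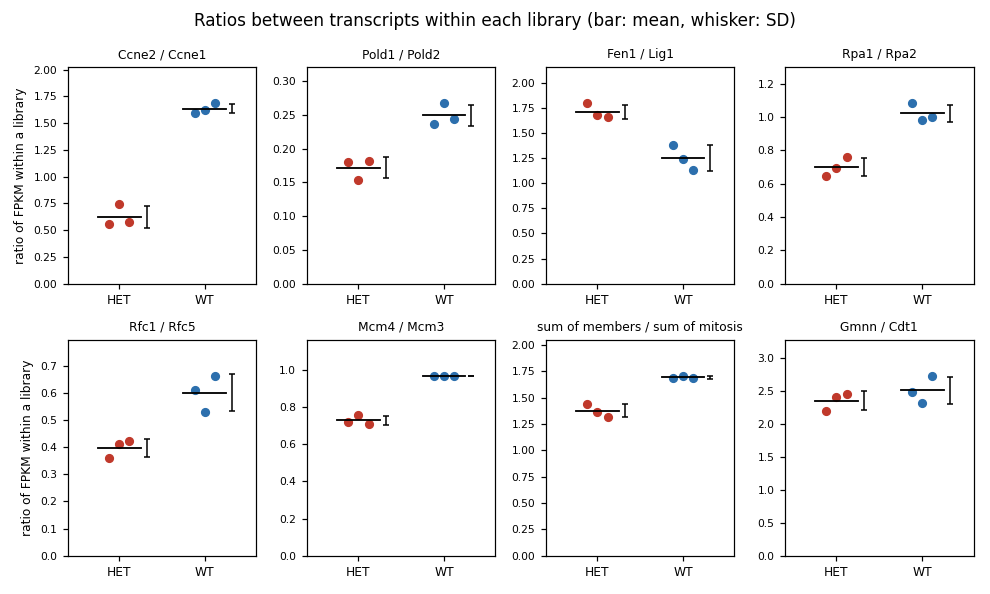
Ratio of FPKM values within each library (points; y axis from 0) for pairs of members and for the sum of the 48 members over that of 20 mitosis genes, with the mean (line) and SD (whisker) of 3 HET libraries (red) and 3 WT libraries (blue). Scaling of a library cancels in a ratio; the groups are apart in 7 panels, with Ccne2 over Ccne1 at 0.554 to 0.741 in HET and 1.599 to 1.68 in WT, and overlap for Gmnn over Cdt1.

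The pairs in these ratios were chosen after the values were seen, so they carry no test and describe unequal change of their 2 genes, not which of them changed.

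A further 21 regulators of the G1/S step were tested, with a median log2 fold change of -0.08. In HET 3 of them were higher and 10 were lower, beside 10.7% and 35.7% of all tested rows. Ccnd2, a D-type cyclin that responds to growth signals, stood at 26.5, 30.2 and 27.6 FPKM in HET, against 15.8, 18.1 and 14.7 FPKM in WT, a 1.73-fold higher level (log2 fold change 0.76, SE 0.09, adjusted p = 0.000781 in limma). Ccnd3, another D-type cyclin, was lower, at 11.8, 10.4 and 10.7 FPKM in HET, against 14.2, 14.8 and 14.6 FPKM in WT (adjusted p = 0.00280). The 2 genes were therefore displaced in opposite directions, with no overlap for either.

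Cdkn1b, which encodes the Cdk2 inhibitor p27, stood at 12.6, 11.7 and 12.3 FPKM in HET, against 15.8, 16.2 and 16.0 FPKM in WT, 1.31-fold lower (adjusted p = 0.00183). Rbl2, a retinoblastoma relative known for repressing E2F targets in resting cells, stood at 6.23, 6.99 and 6.78 FPKM in HET, against 8.43, 8.97 and 8.98 FPKM in WT (adjusted p = 0.00392). The other higher genes were Ccnd1, a further D-type cyclin, at 28.3, 35.4 and 39.4 FPKM in HET, against 22.0, 21.3 and 24.2 FPKM in WT (adjusted p = 0.00767), and Cdc25a, the phosphatase that activates Cdk2, at 21.1, 19.3 and 16.7 FPKM in HET, against 13.2, 14.1 and 14.6 FPKM in WT (adjusted p = 0.00878). These 6 genes were called in the same direction in all 19 alternatives. Rb1, the founding retinoblastoma gene, chosen for mention after its values were seen, stood at 10.3, 13.5 and 13.0 FPKM in HET, against 16.9, 17.9 and 17.2 FPKM in WT (adjusted p = 0.00722). It was called in 18 of 19 alternatives, and not under median-ratio scaling. Under median-ratio scaling 8 of the 21 regulators were higher and 3 lower, beside 31.0% and 20.7% of all tested rows. The number of lower calls was 6 without HET replicate 2 (29.9% of all tested rows) and 6 without WT replicate 1 (28.8%).

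**Figure D4:**
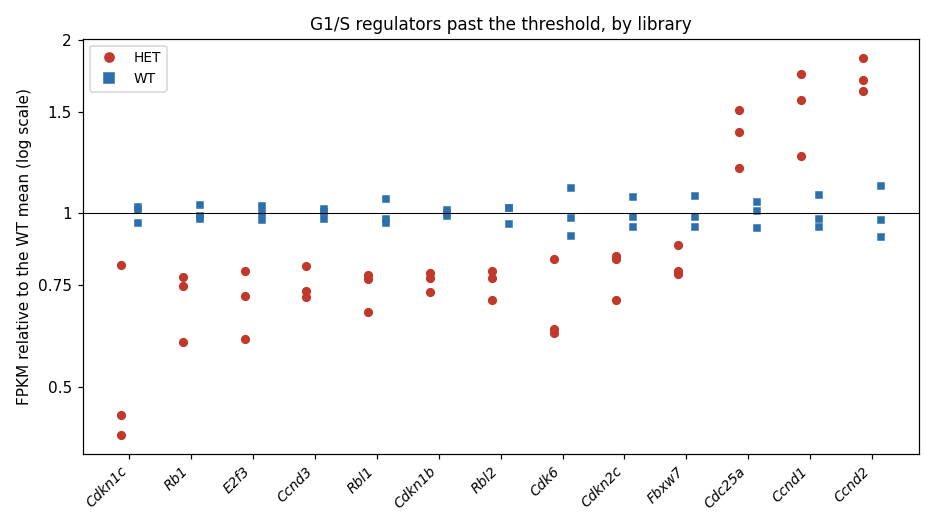
FPKM of each library divided by the mean of the 3 WT libraries (y axis, log scale) for the 13 further G1/S regulators past the threshold, HET in red circles and WT in blue squares. Ccnd1, Ccnd2 and Cdc25a lie above the WT libraries and the other 10 below them, with Cdkn1c spread most widely among the HET libraries.

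Of 26 further replication genes tested, 1 was higher and 4 were lower in HET, beside 10.7% and 35.7% of all tested rows. The median log2 fold change of the 26 was -0.0040. Pold4, the small subunit of polymerase delta, stood at 14.2, 14.5 and 14.6 FPKM in HET, against 18.1, 19.9 and 18.5 FPKM in WT, 1.31-fold lower (adjusted p = 0.00243 in limma) and called in all 19 alternatives. Pold3, which links the enzyme to Pcna, stood at 6.49, 6.82 and 6.81 FPKM in HET, against 7.56, 8.09 and 8.19 FPKM in WT (adjusted p = 0.0192). Pold1, Pold3 and Pold4 were thus lower and Pold2 was higher among the 4 subunits of that polymerase, with those signs in every alternative run. Pole4, a histone-fold subunit of polymerase epsilon, stood at 8.09, 7.07 and 6.92 FPKM in HET, against 9.97, 9.14 and 9.17 FPKM in WT (adjusted p = 0.0113), and Orc3, an origin recognition subunit, at 7.33, 7.97 and 7.08 FPKM in HET, against 8.96, 8.70 and 9.56 FPKM in WT (adjusted p = 0.0176). Rnaseh2b, a subunit of the enzyme that removes ribonucleotides from DNA, was the higher one, at 11.4, 10.5 and 10.5 FPKM in HET, against 7.78, 8.504 and 9.07 FPKM in WT (adjusted p = 0.00937). Of 19 alternatives for each gene, Rnaseh2b was called in 18, Pole4 in 16, Orc3 in 14 and Pold3 in 13. Under median-ratio scaling 12 of the 26 were higher and 1, Pold4, was lower, beside 31.0% and 20.7% of all tested rows. Relative to the epithelial genes 0 were higher and 10 were lower, beside 4.63% and 54.3% of all tested rows.

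Of 20 genes of mitosis, a later phase of the cell cycle, 11 were higher in HET and 0 were lower. Among all tested rows 10.7% were higher and 35.7% lower. The median log2 fold change of the 20 mitosis genes was 0.21, and 3 to 19 of them were higher and 0 lower over the alternatives. Their FPKM sums were 334 to 345 in HET and 273 to 277 in WT. Ccnb2, a mitotic cyclin, stood at 30.7, 30.8 and 29.7 FPKM in HET, against 21.1, 20.5 and 21.9 FPKM in WT (adjusted p = 0.000531 in limma), and Birc5, which encodes survivin of the chromosomal passenger complex, at 43.8, 42.2 and 41.2 FPKM in HET, against 30.1, 30.0 and 30.9 FPKM in WT (adjusted p = 0.000629). The summed FPKM of the 48 replication members over that of the mitosis genes was 1.44, 1.37 and 1.32 in HET, against 1.68, 1.71 and 1.69 in WT. The genotypes were apart in that ratio, in which the scaling of a library cancels, and the difference between the lists was not tested.

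Several cell types of the tissue that hold cycling cells, or none, differed in their markers alongside these results. In bulk tissue fewer cells of a type and less RNA per cell cannot be told apart. Of 10 crypt stem cell genes 5 were lower and 0 higher in HET as deposited, 3 lower and 3 higher under median-ratio scaling, and 3 lower and 2 higher after quantile normalization. Of all tested rows 35.7% were lower and 10.7% higher as deposited, 20.7% and 31.0% under median-ratio scaling, and 18.1% and 24.7% after quantile normalization. The crypt stem cell genes had summed FPKM of 218 to 233 in HET and 252 to 288 in WT. The stem cell receptor gene Lgr5, the most strongly lower of the 10, stood at 0.596, 0.448 and 0.438 FPKM in HET, against 1.73, 1.69 and 1.62 FPKM in WT. It met the limit of 1 FPKM for testing through the WT libraries alone, so it could hardly have entered as higher. Cdca7, the gene of the list with all HET libraries above WT, stood at 20.5, 19.2 and 20.4 FPKM in HET, against 18.9, 16.8 and 18.2 FPKM in WT (adjusted p = 0.0908). The summed FPKM of the members over that of the crypt stem cell genes was 2.13, 2.10 and 2.00 in HET, against 1.74, 1.87 and 1.63 in WT. Of 12 intestinal epithelium genes 4 were higher and 0 lower, with sums of 6447 to 6687 in HET and 5666 to 5784 in WT, and the members over these genes gave 0.0772, 0.0709 and 0.0660 in HET, against 0.0811, 0.0815 and 0.0809 in WT. Enterocyte genes, of which 4 of 12 were higher and 0 lower, summed to 30520 to 33826 in HET and 21846 to 24591 in WT.

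All 10 Paneth cell genes were lower, with sums of 164 to 1218 in HET and 5682 to 16635 in WT. All 7 tested B and plasma cell genes were lower (575 to 1001 in HET, 1827 to 1878 in WT), as were all 11 T and NK cell genes (144 to 204 in HET, 290 to 363 in WT) and 7 of 8 macrophage and dendritic cell genes (48.7 to 84.7 in HET, 124 to 148 in WT). All 8 fibroblast genes (23.2 to 35.6 in HET, 136 to 155 in WT), all 6 smooth muscle genes (165 to 206 in HET, 289 to 320 in WT) and all 6 endothelial genes (11.1 to 16.3 in HET, 27.3 to 29.9 in WT) were lower too. Over all tested rows 35.7% were lower. A gene could meet the limit for testing through WT alone, and 7 of the 10 B and plasma cell genes met it. Without a filter on low values 6 of those 10 were lower, with a median log2 fold change of -0.53 in place of -0.98. In that fit 10 of the 11 T and NK cell genes were lower, beside 27.5% of all tested rows. The part of the cell type sums in the levels above was not tested.

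**Figure D5:**
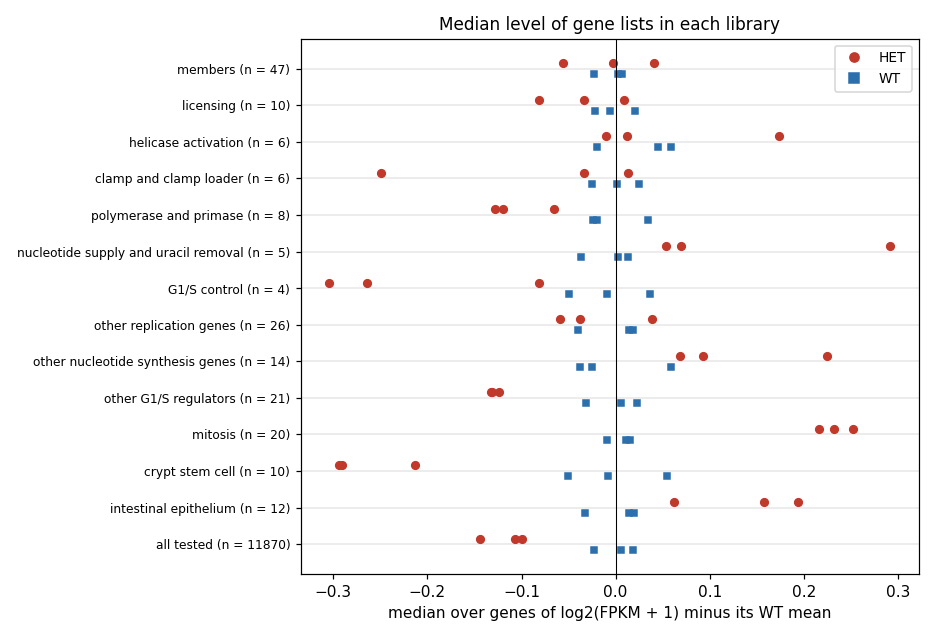
Median over the genes of a list of log2(FPKM + 1) minus its WT mean (x axis) in each library, HET in red circles and WT in blue squares, with the number of genes tested in brackets. The members' medians lie at -0.06 to 0.04 in HET and overlap WT, the mitosis genes at 0.22 to 0.25 in HET lie above WT, and all tested rows at -0.14 to -0.10 in HET lie below WT.

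Transcript length differed between the members that passed in the 2 directions. The 4 higher members had transcripts of 1646 to 2373 bases, with a median of 2096.5, the 8 lower members 2406 to 5346 bases with a median of 4170, and the 35 that did not pass 670 to 7163 bases with a median of 2421, from GENCODE M21. After the correction for length and GC content 2 members were higher and 9 were lower, beside 11.1% and 35.8% of the 11346 rows in that fit. Of the 12 calls 7 were kept, and those of Pola1, Pold1, Pold2, Rrm2 and Ccne1 were not made. Gmnn, Pcna and Pole2 were called lower and Rpa3 higher.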

How the data were processed

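Intestine RNA bound to oligo(dT) beads was made into 3 HET and 3 WT libraries with a SMARTER mRNA kit, per the labels' protocols. The values are FPKM, deposited by the authors in 1 table of all libraries, already divided by transcript length and library total. The submitters' processing notes name the build GRCm39, and the aligner, counter, annotation and strand setting are not given in the sources used. The count table named in the labels was not used here, so depth is unknown.

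Values were taken as log2(FPKM + 1), with no rescaling. Rows of at least 1 FPKM in at least 3 libraries (11870) were fitted with limma 3.58.1 (R 4.3.3, eBayes with trend, genotype as the only term), and p-values were adjusted by Benjamini-Hochberg over these rows, with a threshold of 0.05. The script was tested on simulated data. Rnf111 was also given an exact permutation test. The members and lists were chosen with earlier results of these data known. In full were named Rnf111, in each role up to 3 members with the largest absolute moderated statistic, members that did not pass by value, and of each further list up to 4 genes, or all that moved in a direction where these were at most 5. Transcript length, GC content and exon overlap came from GENCODE M21 (GRCm38), a build other than that of the values, and promoters from RefSeq on GRCm38.p6. No 2 libraries were identical. Alternatives were pseudocounts of 0.1 and 0.01, other filters on low values, a common FPKM sum, median-ratio factors, quantile normalization, the replicate number as a block, other variance models and leaving out each library. Scaling to epithelial genes, median-ratio factors over tested rows, and the length and GC correction were chosen after seeing the data. Some marker genes are not reported here.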

Additional observations from a re-analysis of the deposited data

How the results depend on the processing

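With 4 members higher and 8 lower as deposited, the number higher was 20 under median-ratio scaling (31.0% of all tested rows), 18 under quantile normalization (24.7%), 14 under median-ratio scaling over tested rows (23.0%), 2 after the length and GC correction (11.1%), 1 relative to the epithelial genes (4.63%) and 1 to 4 without single libraries (6.35% to 13.6%). The number lower was 5 without a filter on low values (27.5%), 4 with a mean of at least 5 FPKM (25.2%), 5 with a common FPKM sum (29.6%), 2 under median-ratio scaling (20.7%), 2 under quantile normalization (18.1%), 3 under median-ratio scaling over tested rows (25.1%), 20 relative to the epithelial genes (54.3%) and 5 to 10 without single libraries (26.5% to 37.1%). The median of the members, -0.0014, was 0.18 under median-ratio scaling, 0.20 under quantile normalization, 0.11 under median-ratio scaling over tested rows, -0.13 relative to the epithelial genes, and -0.04 to 0.01 without single libraries. Relative to the epithelial genes Rnf111 was at -0.31 (adjusted p = 0.00592 in limma). Members changed sign in 15 cases under median-ratio scaling, 14 under quantile normalization, 17 relative to the epithelial genes and 14 after the length and GC correction. Those past the threshold in either fit were, under quantile normalization, Cdc6 (0.31), Gins3 (0.23), Pola1 (0.062), Pole (0.27) and Chaf1a (0.21), and, under median-ratio scaling, Mcm5 (0.18), Lig1 (0.18), Chaf1a (0.17) and Cdk2 (0.0059). The other filters on low values test other rows, and leaving out a library leaves fewer samples. For the rest the cause was not tested.

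With the replicate number as a block 2 members were higher and 6 were lower, beside 9.83% and 33.0% of all tested rows. The calls of Pold1, Pold2, Rrm2 and Cdk2 were not made. HET and WT libraries of the same number had deviations that correlated at -0.03, 0.13 and 0.32. HET replicate 1 correlated best with WT replicate 2 (0.25), while HET replicates 2 and 3 correlated best with the WT library of their own number. With 3 libraries per genotype these values cannot tell whether the numbers pair the samples.

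FPKM without depth gives no counting error, and Orc1 fell under the limit for testing. The labels give no segment or batch, so these and genotype cannot be told apart.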
